A study of Homo sapiens with 18 samples.

Results

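The 6 libraries described here, of 18 in the study, come from induced H1299 cells and ask what the acetyltransferase-recruiting compound AceTAGp300CBP-1 (the p300/CBP compound) did to the transcriptome once a tagged p53 was being made. They were taken by their labels and column names as the 3 libraries of cells given this compound and the 3 of cells given its solvent, DMSO. H1299 cells derive from a non-small cell carcinoma of the human lung and make no p53 protein of their own. In both groups doxycycline had switched on a wild-type p53 transgene, p53-FKBP12F36V-HA, and both were labelled as 24 h of compound or DMSO. The tagged p53 is ectopic, so its level is set by the inducible construct and not by the cell's own gene. The labels give no dose of compound or doxycycline, and they do not say whether the 3 libraries of a group came from separate cultures, so each p-value measures the spread between these samples only. The other groups were used, 9 libraries in all, as far as they bear on this comparison, namely those of the same compound or DMSO in cells labelled H1299 without induction, and those of a second compound, AceTAGPCAFGCN5-4 (the PCAF/GCN5 compound), in induced cells.

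AceTAG compounds are heterobifunctional molecules, 1 end of which binds the FKBP12F36V tag while the other is meant to bring a lysine acetyltransferase to the tagged protein. The paralogous acetyltransferases p300 (EP300) and CBP (CREBBP) are known coactivators of p53 and acetylate lysines in its C-terminal region, and p53 in turn activates genes of cell cycle arrest, apoptosis, DNA repair and metabolism. Genes of replication and mitosis are known to fall when p53 is active, by way of p21 and the repressive DREAM complex, which acts at CHR and E2F elements of their promoters.

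Levels are given as a gene's counts per 1000000 counts of its library (CPM) and changes as log2 fold changes ± SE, p300/CBP compound minus DMSO, with n = 3 libraries per group unless stated. P-values are from edgeR's 2-sided quasi-likelihood test with Benjamini-Hochberg adjustment over all genes tested, and a gene was called, or is said to have risen or fallen, at an adjusted p below 0.05. Total counts were 20.2, 22 and 24.2 M with the compound and 24.9, 22.4 and 23.6 M with DMSO. The third DMSO library stood apart from the other 5. It scored 47.8 on the first principal component, which held 50.3% of the variance of the 6 libraries, where the compound libraries scored -21.5 to -18.5 and the other DMSO libraries 7.46 and 5.91. Mitochondrially encoded transcripts made up 0.714% of its counts, against 1.91% to 2.43% in the compound libraries and 1.84% and 2.14% in the other DMSO libraries. Relative to those DMSO libraries its genes with the longest exons were low (median log2 ratio -0.12) and those with the shortest were high (0.06). Results are therefore also given without it. In that fit the test took its spread almost wholly from all genes together, so its 95% intervals were narrower for their SE. IGFBP3, for example, was at 4.14 ± 0.20 (3.75 to 4.53) without that library and at 4.44 ± 0.29 (3.78 to 5.11) with it. The very small adjusted p-values and larger numbers of calls of that fit therefore say little of each gene's own spread. They are not stronger support. Of the markers checked, VIM (2366 to 2836 CPM) and the simple-epithelium keratins KRT8 and KRT18 were abundant, while CDH1, EPCAM and the lung lineage genes NKX2-1, SFTPC and NAPSA stayed at or below 0.538 CPM in all 6 libraries. The summed level of 8 immune markers ran from 0.248 to 0.793 CPM with the compound and from 0.0424 to 0.357 CPM with DMSO. That of 6 endothelial markers ran from 0.0992 to 0.538 CPM with the compound and from 0.17 to 0.482 CPM with DMSO, and that of 7 fibroblast markers from 1.34 to 1.82 CPM with the compound and from 1.85 to 3.01 CPM with DMSO. The part of these markers in the results was not tested. PTPRC, MS4A1, NKG7, LUM and THY1 had no count.

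The enzymes to be recruited were not called at the transcript level: EP300 was at 104, 110 and 115 CPM with the compound and 98.9, 103 and 65.7 CPM with DMSO (adjusted p = 0.26), the low value being that of the third DMSO library. CREBBP differed by 0.16 ± 0.10 (adjusted p = 0.39) and FKBP1A, the native relative of the tag, by 0.03 ± 0.07 (adjusted p = 0.792).

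Of 15019 genes tested in induced cells, 441 rose and 457 fell with the compound, which is 2.94% and 3.04% of them, or 5.98% in either direction. Over all of them the median log2 fold change was -0.0029. Without the third DMSO library 1575 rose and 1659 fell of 15266 (10.3% and 10.9%), and all 898 genes called with it were called again in the same direction. Counting only genes called in the fit of 6 libraries and again without each library in turn left 162 that rose (1.08%) and 80 that fell (0.533%). Leaving out a compound library lowered the numbers most, to between 171 and 208 that rose and between 92 and 127 that fell.

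Rises and falls were of similar number but not of similar size. A change over 2-fold was found for 117 of the genes that rose (26.5%) and 28 of those that fell (6.13%), and 43 against 2 changed over 4-fold. The same held without the third DMSO library, with 174 rises and 56 falls over 2-fold. Long noncoding genes also leaned upward, with 25 that rose and 9 that fell of 1710 tested, against 406 and 444 of 12451 protein-coding genes. The plot of all tested genes shows both sets of calls and their wider reach when the third DMSO library is left out.

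**Figure D1:**
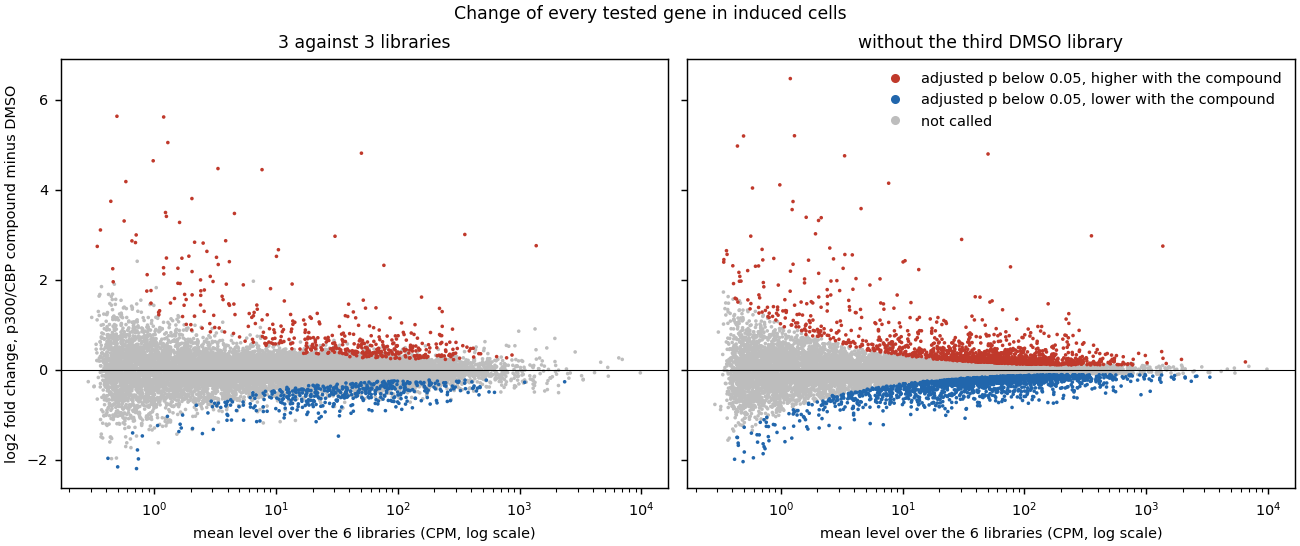
Each point is 1 of the tested genes, with its mean level over the 6 libraries (CPM, log scale) on the horizontal axis and its log2 fold change, p300/CBP compound minus DMSO, on the vertical axis. The left panel uses 3 against 3 libraries (441 higher in red, 457 lower in blue) and the right panel leaves out the third DMSO library (1575 and 1659, of which genes outside the left panel's test are not drawn).

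The arrest and feedback arm of the p53 response was led by CDKN1A, which encodes the CDK inhibitor p21. This gene (ENSG00000124762, GRCh38 chr6:36676460-36687339) was at 2332, 2451 and 2386 CPM with the compound, against 380, 332 and 343 CPM with DMSO. The groups were far apart and each was tight, a rise of 6.75-fold (2.75 ± 0.08, adjusted p = 2.34e-07, and 2.75 without the third DMSO library). SESN1, a stress-inducible restraint on mTORC1 signalling, had 91, 96 and 100 CPM with the compound and 36.4, 39.8 and 33.9 CPM with DMSO (1.37 ± 0.08, adjusted p = 3.79e-05). Its paralog SESN2 rose less, by 0.68 ± 0.06 (adjusted p = 0.000507). ZMAT3, an RNA-binding protein that alters splicing, rose to 123, 114 and 122 CPM with the compound, against 51.6, 58.4 and 50.5 CPM with DMSO. BTG2, an antiproliferative cofactor of mRNA deadenylation, had 59.6, 64 and 63.5 CPM with the compound and 29.2, 28.7 and 25.8 CPM with DMSO. Both changed by 1.15 (SE 0.07 and 0.08, adjusted p = 8.75e-05 each). In this list 15 of 26 tested members rose and none fell (median 0.36), and 20 of 27 rose without the third DMSO library.

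Not every feedback gene moved as far. MDM2, whose product marks p53 for degradation, was already abundant, at 677, 746 and 724 CPM with the compound and 569, 605 and 571 CPM with DMSO. It is named for its role after its values were seen. The groups did not overlap, but the rise was 1.22-fold (0.29 ± 0.07, adjusted p = 0.0363). The call held without the third DMSO library (4.49e-08) and was lost without each of the other 5 libraries (adjusted p = 0.0548 to 0.211). GADD45A, a stress-induced growth arrest gene, had 190, 185 and 181 CPM with the compound and 129, 133 and 191 CPM with DMSO. The third DMSO library lay above the compound libraries, and the gene was called without that library only (0.50, adjusted p = 1.26e-17, against 0.29 ± 0.14, adjusted p = 0.261). BTG1, the paralog of BTG2, was at 0.20 ± 0.08 (adjusted p = 0.174).

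Among apoptosis genes the widest change was that of TP53I11 (GRCh38 chr11:44885903-44951306), a p53-inducible gene. It had 91.9, 100 and 99.7 CPM with the compound, against 3.61, 3.39 and 3.31 CPM with DMSO, a rise of 28-fold (4.81 ± 0.09, adjusted p = 1.72e-08). TP53I3, a quinone oxidoreductase linked to oxidative stress, was at 630, 635 and 633 CPM with the compound and 84.3, 76.7 and 74.1 CPM with DMSO (8.02-fold, SE 0.07 on the log2 scale, adjusted p = 5.32e-08). In both genes the compound libraries varied by a small part of the gap between the groups. The death receptor gene FAS had 74.5, 80.1 and 78.7 CPM with the compound and 26.4, 28.6 and 24.5 CPM with DMSO (1.54 ± 0.08, adjusted p = 2.42e-05). CYFIP2, a regulator of actin assembly, rose by 1.29 ± 0.07 (adjusted p = 2.97e-05).

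Receptors of the FAS family and BCL2 family genes did not move as one. TNFRSF10B, which encodes the TRAIL receptor DR5, rose by 0.78 ± 0.06 (adjusted p = 0.000218) and the decoy receptor TNFRSF10D by 0.83 ± 0.08 (adjusted p = 0.000633). TNFRSF10C, another decoy receptor, was below 1 CPM in all 6 libraries and did not pass (-0.04 ± 0.44, adjusted p = 0.971). BBC3, which encodes the BH3-only protein PUMA, had 30.7, 33.2 and 28.2 CPM with the compound and 16.3, 13.7 and 15.1 CPM with DMSO (1.02 ± 0.10, adjusted p = 0.000852). The effector BAX was at 152, 146 and 150 CPM with the compound and 103, 95.9 and 114 CPM with DMSO (0.51 ± 0.08, adjusted p = 0.00618, and 0.05 without the third compound library, which misses the threshold). PMAIP1, which encodes the BH3-only protein NOXA, went its own way: 72.9, 67.6 and 64.7 CPM with the compound overlapped 74.4, 68.5 and 91.1 CPM with DMSO (-0.20 ± 0.11, adjusted p = 0.316). The BH3-only gene BID fell by 0.39 on the log2 scale (adjusted p = 0.0467), a call kept without the third DMSO library (0.00572) and lost without any other (0.0875 to 0.214). STEAP3, a metalloreductase of iron uptake that p53 is known to induce, also fell, with 47.4, 48.7 and 48.7 CPM with the compound and 65.7, 63.9 and 63.2 CPM with DMSO (-0.42 ± 0.06, adjusted p = 0.00525). That call missed only without the third compound library (0.0514). In the apoptosis list 15 of 26 rose and 2 fell (median 0.53), and 19 rose and 3 fell without the third DMSO library.

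**Figure D2:**
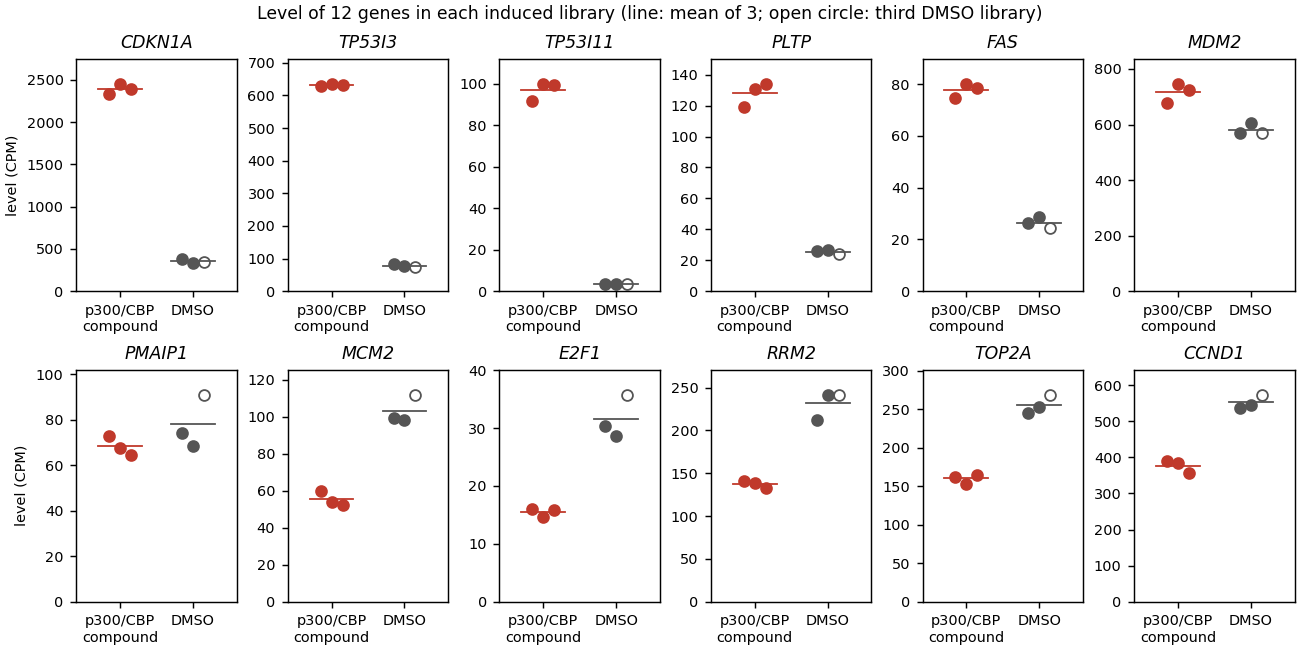
Each panel gives the level of 1 gene (CPM, axis from 0) in the 3 libraries of the p300/CBP compound (red) and the 3 of DMSO (grey, the third library as an open circle), with a line at the mean of each group. CDKN1A, TP53I3, TP53I11, PLTP and FAS lie far apart between groups, MDM2 by 1.22-fold, PMAIP1 overlaps, and MCM2, E2F1, RRM2, TOP2A and CCND1 are lower in every compound library.

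DNA repair genes of the p53 program rose in part. RRM2B, the p53-inducible subunit of ribonucleotide reductase, averaged 368 ± 6.95 CPM with the compound and 196 ± 9.34 CPM with DMSO (SD), a rise of 0.90 (adjusted p = 8.75e-05). POLH, the polymerase that copies past ultraviolet lesions, had 77.4, 79.1 and 77 CPM with the compound and 40.6, 42.2 and 35.7 CPM with DMSO (0.97 ± 0.08, adjusted p = 0.000246). ASCC3, a helicase of alkylation repair, rose by 0.61 ± 0.06 (adjusted p = 0.000852). The damage sensor DDB2 did not pass, with 46.9, 45.4 and 47.1 CPM with the compound and 46.1, 40.4 and 37.5 CPM with DMSO (0.16 ± 0.08, adjusted p = 0.294). In all 5 of 13 rose and none fell (median 0.25).

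In metabolism 15 of 23 rose and none fell (median 0.51), or 20 and 1 without the third DMSO library. PLTP, a phospholipid transfer protein of lipoproteins, had 119, 131 and 134 CPM with the compound, against 26.1, 26.7 and 24 CPM with DMSO (2.32 ± 0.08, adjusted p = 6.95e-07). CMBL, a hydrolase, was at 235, 235 and 240 CPM with the compound and 85.9, 85.7 and 59.3 CPM with DMSO (1.61 ± 0.12, adjusted p = 0.000235). ABHD4, a lipase of N-acyl phospholipids, rose by 1.18 ± 0.09 (adjusted p = 0.000211) and ISCU, the scaffold on which iron-sulfur clusters are built, by 0.78 ± 0.08 (adjusted p = 0.000736). FDXR, a mitochondrial reductase and a listed target, had 243, 257 and 250 CPM with the compound and 153, 141 and 249 CPM with DMSO. As with GADD45A, the third DMSO library alone reached the compound libraries, and the difference passed without it (0.77, adjusted p = 9.85e-30) and not with it (0.45 ± 0.19, adjusted p = 0.199).

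Secreted and membrane proteins showed rises from low levels. IGFBP3, which binds insulin-like growth factors, had 15.7, 14.2 and 14.2 CPM with the compound, against 0.482, 1.2 and 0.339 CPM with DMSO (4.44 ± 0.29, adjusted p = 8.75e-05). NSG1, an endosomal trafficking protein, had 7.73, 9.7 and 7.69 CPM with the compound and 0.884, 0.491 and 0.848 CPM with DMSO (3.47 ± 0.23, adjusted p = 8.75e-05). The matrix proteoglycan gene VCAN was at 16.2, 20.3 and 17.8 CPM with the compound and 3.33, 3.43 and 1.74 CPM with DMSO (2.67 ± 0.21, adjusted p = 0.000298). EPS8L2, an actin-linked adaptor, rose by 1.20 ± 0.07 (adjusted p = 6.18e-05). Of this list 12 of 22 rose and 1 fell (median 0.73), the hemidesmosomal collagen COL17A1 (-0.72 ± 0.18, adjusted p = 0.0497). Its call was kept without the first or the third DMSO library (0.045 and 0.016) and lost without any other (0.0936 to 0.219).

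Among other regulators the stress factor ATF3 rose to 26.1, 22.4 and 23 CPM with the compound, against 12.6, 13.6 and 13.9 CPM with DMSO (0.83 ± 0.10, adjusted p = 0.0021). BLOC1S2, a subunit of a lysosome-positioning complex, rose by 0.67 ± 0.06 (adjusted p = 0.000608). KLF4, a zinc finger factor, fell to 10.4, 8.84 and 10 CPM with the compound, against 16.5, 16.5 and 19.7 CPM with DMSO (-0.86 ± 0.12, adjusted p = 0.00415). E2F7, a repressor of E2F-driven genes, fell by 0.68 on the log2 scale (adjusted p = 0.00506). These were the 2 falls of the list beside 11 rises among 25. Of 15 listed noncoding genes 8 could be tested and 3 rose, led by MIR34AHG, the host transcript of the p53-responsive microRNA miR-34a. It had 5.01, 5.33 and 6.24 CPM with the compound and 1.33, 0.981 and 0.594 CPM with DMSO (2.50 ± 0.25, adjusted p = 0.000819). The lysosome and autophagy list had 3 rises among 15 (median 0.15). Without the third DMSO library 18 other regulators rose and 3 fell, 6 noncoding genes rose, and 7 lysosome and autophagy genes rose.

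Over the 8 lists joined, 79 of 158 tested p53 targets rose and 5 fell (median 0.36), against 2.94% and 3.04% of all genes. Without the third DMSO library 113 rose and 10 fell of 159, and without any 1 library between 52 and 113 rose and between 2 and 10 fell. The 5 that fell were BID, STEAP3, COL17A1, KLF4 and E2F7. Lists and members were chosen with earlier results of these data known. The shares of these and of the cell cycle lists, also between states and compounds, therefore describe the lists and are no test of enrichment.

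Promoters of 300 bases, from 250 before to 50 after the annotated start (RefSeq, GRCh38.p14), were searched for the p53 response element, taken as 2 copies of the p53 consensus half-site with a spacer of up to 13 bases. Only 8 of 27305 promoters held such a match, 4 of them at tested genes. The 2 of these genes with the largest called rises are shown, with the element in capitals. They were chosen after their values were seen, as were DYNC2H1 and LNCTAM34A, the other two. MCC lies at chr5:113488404-113488703 on the minus strand and PTCHD4 at chr6:48111148-48111447 on the minus strand, each printed in the direction of transcription. The PTCHD4 window lies outside the gene as counted, which spans chr6:47878028-48068689 in the deposited files. It is therefore not at the start of the gene model whose levels are given below.
MCC: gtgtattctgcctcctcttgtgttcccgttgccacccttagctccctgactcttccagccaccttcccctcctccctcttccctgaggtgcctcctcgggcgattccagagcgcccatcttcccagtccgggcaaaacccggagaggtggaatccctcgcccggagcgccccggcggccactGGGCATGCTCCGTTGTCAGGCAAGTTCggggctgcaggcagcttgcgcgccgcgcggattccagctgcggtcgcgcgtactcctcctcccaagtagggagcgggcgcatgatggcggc
PTCHD4: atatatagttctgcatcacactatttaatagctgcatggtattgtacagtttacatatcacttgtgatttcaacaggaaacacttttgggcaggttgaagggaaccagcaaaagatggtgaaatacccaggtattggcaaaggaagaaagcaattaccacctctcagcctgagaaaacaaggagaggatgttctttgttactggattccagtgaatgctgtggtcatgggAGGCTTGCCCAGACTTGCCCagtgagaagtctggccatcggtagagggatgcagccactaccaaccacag
PTCHD4, a patched-domain gene that p53 is known to induce, had 4.02, 3.73 and 3.8 CPM with the compound and 1.29, 0.937 and 0.636 CPM with DMSO (2.00 ± 0.25, adjusted p = 0.00216). MCC, which encodes a candidate colorectal tumour suppressor, had 42.3, 44.3 and 45.2 CPM with the compound and 25.5, 25.5 and 24.7 CPM with DMSO (0.79 ± 0.07, adjusted p = 0.000581). Both were separated between groups with and without the third DMSO library. DYNC2H1, a dynein of cilia, was at 0.33 ± 0.07 (adjusted p = 0.0297; called without the second or the third DMSO library, and up to 0.176 without another). LNCTAM34A, transcribed away from the miR-34a locus, was at 0.98 ± 0.40 and not called (adjusted p = 0.188). No promoter of the 71 called p53 targets with a sequence held the full element in this window. A match describes letters only and shows neither binding nor its absence.

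The largest rises outside the lists began from very low levels. SEPTIN4, a septin whose short form promotes apoptosis, had 6.4, 6.01 and 6.78 CPM with the compound, against 0.241, 0.223 and 0.382 CPM with DMSO. AREG, a ligand of the EGF receptor, had 3.57, 2.46 and 2.77 CPM with the compound and 0.281, 0.268 and 0.339 CPM with DMSO, and HES2, a bHLH repressor, 1.93, 2.1 and 2.81 CPM with the compound and 0.241, 0.134 and 0.212 CPM with DMSO. All 3 passed in every fit that left out a library (adjusted p = 2.94e-05, 0.000507 and 0.000736 with all 6). A further 4 genes had so few DMSO counts that no fold is given. The phosphodiesterase PDE4C had 43, 58 and 55 counts with the compound and 0, 1 and 2 with DMSO. The inositol phosphatase INPP5D had 48, 61 and 58 counts with the compound and 2, 1 and 2 with DMSO. LGR6, a receptor for R-spondins, had 15, 28 and 32 counts with the compound and 2, 1 and 1 with DMSO, and the pseudogene CYP4F29P 23, 45 and 60 counts with the compound and 2, 3 and 0 with DMSO. H19, an imprinted noncoding RNA named after its values were seen, had 3.52, 4.74 and 5 CPM with the compound and 0.522, 0.847 and 0.509 CPM with DMSO (2.81 ± 0.26, adjusted p = 0.0006). Its imprinted neighbour on chromosome 11, the growth factor IGF2, was lower in every compound library, at 1.19, 0.683 and 1.03 CPM against 2.09, 2.77 and 2.25 CPM with DMSO (-1.29 ± 0.26, adjusted p = 0.0246), a call kept without the first or the third DMSO library (0.0484 and 0.00035) and lost without any other (0.0624 to 0.119).

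Cell cycle genes fell together and by less. The counts are of RNA from whole cultures, so fewer cells in a phase and less RNA per cell cannot be told apart. E2F1, an activator of S phase genes, had 16, 14.7 and 15.8 CPM with the compound, against 30.3, 28.6 and 35.8 CPM with DMSO (-1.04 ± 0.11, adjusted p = 0.00101). E2F2 changed alike (-1.07 ± 0.11, adjusted p = 0.000902), and MYBL2, which drives late cell cycle genes, by -0.76 ± 0.09 (adjusted p = 0.0016). E2F3 and E2F4 did not pass (-0.04 ± 0.06 and -0.09 ± 0.07, adjusted p = 0.761 and 0.46). Among G1 regulators the CDK-activating phosphatase CDC25A fell by 0.94 on the log2 scale (adjusted p = 0.00276) and cyclin D1, CCND1, to 390, 384 and 358 CPM with the compound, against 536, 546 and 574 CPM with DMSO (-0.56 ± 0.07, adjusted p = 0.00211). CDK6, CCND3 and CCNE1 did not pass (adjusted p = 0.942, 0.508 and 0.424). In the G1 list 6 of 15 fell and in the E2F list 4 of 18, or 9 and 8 without the third DMSO library, with no rise in either list in either fit.

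Replication licensing was lowered across the MCM helicase. MCM2 had 59.7, 54 and 52.1 CPM with the compound, against 99.2, 98.2 and 112 CPM with DMSO (-0.91 ± 0.09, adjusted p = 0.000622). MCM4, MCM5, MCM6 and MCM7 changed by -0.69, -0.75, -0.54 and -0.69 (adjusted p = 0.000581, 0.00158, 0.00215 and 0.000736). MCM3 changed by -0.75 ± 0.12 (adjusted p = 0.00675), with the call missed without the second or the third compound library (0.054 and 0.0611). All 6 subunits were lower in every compound library than in any DMSO library. The share of all tested genes separated in this way is not given, so this separation adds nothing to their calls. CLSPN, the adaptor of the replication checkpoint, had 30.3, 29.3 and 31.3 CPM with the compound and 49.8, 55.8 and 51.4 CPM with DMSO (-0.80 ± 0.08, adjusted p = 0.000649). In this list 17 of 22 fell (median -0.69), and 21 without the third DMSO library. RRM2, the S phase subunit of ribonucleotide reductase, had 141, 139 and 133 CPM with the compound and 212, 242 and 241 CPM with DMSO (-0.76 ± 0.07, adjusted p = 0.000633), opposite in sign to its paralog RRM2B. ASF1B, a histone chaperone, and the polymerase subunits POLA1 and POLE also fell (-0.75, -0.52 and -0.46, adjusted p = 0.0016, 0.00343 and 0.00346). Of the fork and nucleotide list 20 of 33 fell. TYMS, the thymidylate synthase, did not, with 263, 240 and 250 CPM with the compound and 257, 265 and 242 CPM with DMSO (-0.03 ± 0.06, adjusted p = 0.808).

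Mitotic genes fell in 42 of 55 cases (median -0.53), and in 54 without the third DMSO library. TOP2A, the topoisomerase that untangles sister chromatids, had 162, 153 and 165 CPM with the compound and 245, 253 and 269 CPM with DMSO (-0.68 ± 0.06, adjusted p = 0.0006). NDC80, of the kinetochore, had 54.7, 52.5 and 52.3 CPM with the compound and 84.7, 85.5 and 86.5 CPM with DMSO (-0.70 ± 0.06, adjusted p = 0.000507). CDC20, an activator of the anaphase-promoting complex, and KIF2C, a microtubule depolymerase, changed by -0.62 ± 0.06 and -0.63 ± 0.06 (adjusted p = 0.00101 and 0.000902). Homologous recombination and Fanconi genes fell in 16 of 23 cases, among them EXO1, RAD51AP1, FANCA and FANCI (-0.79, -0.68, -0.60 and -0.48, adjusted p = 0.00588, 0.00202, 0.00244 and 0.0041). In the 4 lists of replication, mitosis and recombination joined, 95 of 133 tested members fell and none rose (median -0.53), against 3.04% of all genes that fell. Without the third DMSO library 122 fell and 1, the ligase LIG1, rose (0.28, adjusted p = 9.04e-05). Without any 1 library between 40 and 122 fell.

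Promoters of these genes were searched on both strands for 3 motifs: the CHR as TTTGAA, the CCAAT box as CCAAT, and E2F as any of TTTCCCGC, TTTGGCGC, TTTGCCGC and TTTCGCGC. One promoter of a licensing gene and 1 of a mitotic gene with its changes given above are shown, with the matches in capitals: E2F in MCM2 (chr3:127598161-127598460, plus strand), and CHR and CCAAT in CDC20 (chr1:43358731-43359030, plus strand).
MCM2: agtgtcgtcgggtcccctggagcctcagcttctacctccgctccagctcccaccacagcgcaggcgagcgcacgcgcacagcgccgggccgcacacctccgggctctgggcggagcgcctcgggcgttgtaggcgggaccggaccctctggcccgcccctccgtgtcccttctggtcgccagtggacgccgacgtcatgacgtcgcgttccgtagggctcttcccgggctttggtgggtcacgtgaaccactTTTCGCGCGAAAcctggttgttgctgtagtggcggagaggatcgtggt
CDC20: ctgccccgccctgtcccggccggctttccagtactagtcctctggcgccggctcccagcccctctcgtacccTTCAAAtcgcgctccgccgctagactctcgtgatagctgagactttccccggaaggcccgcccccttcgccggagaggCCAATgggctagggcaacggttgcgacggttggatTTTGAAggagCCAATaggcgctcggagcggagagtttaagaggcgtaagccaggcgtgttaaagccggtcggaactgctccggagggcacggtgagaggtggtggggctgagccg
In MCM2 the capitals are 2 E2F matches that overlap on opposite strands. In CDC20 they are 2 matches of each motif, with TTCAAA the CHR read on the other strand. Among the 360 genes that fell and had a promoter sequence 23.3% held the CHR, 47.5% CCAAT, 15.6% both and 13.6% E2F. In the 10944 tested genes with a promoter these shares were 9.3%, 36.6%, 3.93% and 5.39%, and in all 27305 promoters 15.4%, 35.7%, 6.08% and 3.33%. The 337 genes that rose held the CHR in 11% and E2F in 3.86%. Within the lists, called or not, 36 of 50 mitotic promoters held the CHR and 3 held E2F, while 1 of 19 licensing promoters held the CHR and 11 held E2F. These are counts of letters, and overlap between the motifs was not removed.

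**Figure D3:**
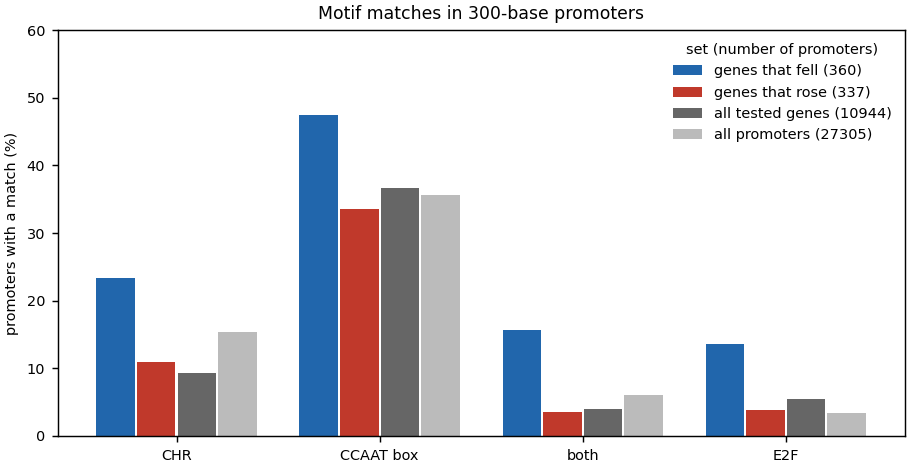
Bars give the percentage of 300-base promoters with a match to the CHR, the CCAAT box, both, or E2F, for genes that fell (blue, 360 promoters), genes that rose (red, 337), all tested genes (10944) and all promoters (27305). The genes that fell hold the CHR in 23.3% and E2F in 13.6%, against 9.3% and 5.39% of all tested genes.

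Nuclear and chromatin genes linked to senescence fell in part. LMNB1, a nuclear lamina gene, had 76.9, 75.5 and 76.6 CPM with the compound and 123, 133 and 162 CPM with DMSO (-0.88 ± 0.10, adjusted p = 0.00185), and HMGB2, a chromatin protein, changed by -0.59 ± 0.07 (adjusted p = 0.00156). Of 22 tested members of that list 4 fell and none rose, whereas 14 fell and 2 rose without the third DMSO library.

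Single genes of other lists were also called, where 5.98% of all genes were called in either direction and 21.2% without the third DMSO library. JAG2, a Notch ligand, had 74.9, 84.5 and 76.2 CPM with the compound and 27.8, 26.6 and 36.1 CPM with DMSO (1.37 ± 0.12, adjusted p = 0.000525). The receptor NOTCH1 had 19.5, 26.9 and 21.5 CPM with the compound and 12, 12 and 12.6 CPM with DMSO (0.88 ± 0.13, adjusted p = 0.00511). NOTCH1 is also on the secreted and membrane list of p53 targets and was counted there. These were the 2 calls among 14 Notch genes, of which 6 rose and 1 fell without the third DMSO library. TGFBR1, a TGF-beta receptor kinase, rose by 0.73 ± 0.07 (adjusted p = 0.00069), alone in a list of 16, of which 3 rose and 2 fell without that library. In the MAPK feedback list 4 of 16 fell, and 8 without that library, among them SPRY4, an inhibitor of receptor tyrosine kinase signalling, and PHLDA1 (-0.47 ± 0.07 and -0.44 ± 0.06, adjusted p = 0.00515 and 0.00446). The laminin gene LAMC1 rose by 0.42 ± 0.06 (adjusted p = 0.00467). In its list of matrix and adhesion genes 3 of 32 rose and 4 fell, or 4 and 10 without that library. In the list of cytoskeleton and filament genes 3 of 18 fell and 1, LIMA1, rose, or 6 and 2 without that library. The falls were of KRT8, KRT80 and KRT18, while KRT7 did not pass, with KRT80 at -0.58 ± 0.09 (adjusted p = 0.00533) and KRT18 at 163, 154 and 158 CPM with the compound against 237, 234 and 315 CPM with DMSO (-0.74 ± 0.12, adjusted p = 0.0069, and 0.0567 and 0.0601 without the second or the third compound library). KRT8 was at -0.37 ± 0.07 (adjusted p = 0.0167), a call kept without the second or the third DMSO library and lost without any other (0.0672 to 0.129). ANGPTL4, a secreted lipase inhibitor, fell by 0.70 on the log2 scale (adjusted p = 0.00201). In its list of hypoxia and glycolysis genes 3 of 29 fell and none rose, or 10 and 2 without the third DMSO library. TAP1, the peptide transporter of antigen presentation, rose by 0.54 ± 0.08 (adjusted p = 0.00484). In the same interferon list of 27 genes OAS3 fell (-0.46, adjusted p = 0.0315) and no other member was called. POLR1A, the large subunit of RNA polymerase I, rose by 0.48 ± 0.07 (adjusted p = 0.00428). It was the 1 rise beside 2 falls among 30 genes of MYC and ribosome biogenesis (median -0.17). Without the third DMSO library 2 of these rose and 17 fell.

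No member passed edgeR's test in 9 lists in the fit of 6 libraries. Deacetylases and acetyl-lysine readers had 0 of 31 called (3 at an unadjusted p below 0.05, 0 by DESeq2), and genes that respond to bromodomain inhibitors 0 of 9 (2 and 0). Immunophilins had 0 of 13 (3 and 0), Wnt targets 0 of 12 (4 and 1), NF-kB targets 0 of 17 (4 and 1) and heat shock genes 0 of 14 (1 and 0). Ribosomal proteins had 0 of 31 (1 and 1) and oxidative phosphorylation genes 0 of 26 (2 and 0). Without the third DMSO library edgeR called members of each: 2 deacetylases and readers rose and 1 fell, 1 bromodomain-linked gene rose and 2 fell, 3 immunophilins fell, 1 Wnt target fell and 6 NF-kB targets fell. In that fit 1 heat shock gene rose and 1 fell, 3 ribosomal protein genes rose and 1 fell, and 1 oxidative phosphorylation gene rose and 2 fell. Mitochondrially encoded genes had 0 of 15 called (0 and 0), with a median of 0.48 that was 0.09 without the third DMSO library, where 5 rose and 1 fell. The low share of mitochondrial counts in that library stands beside this value, and its part in it was not tested otherwise.

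**Figure D4:**
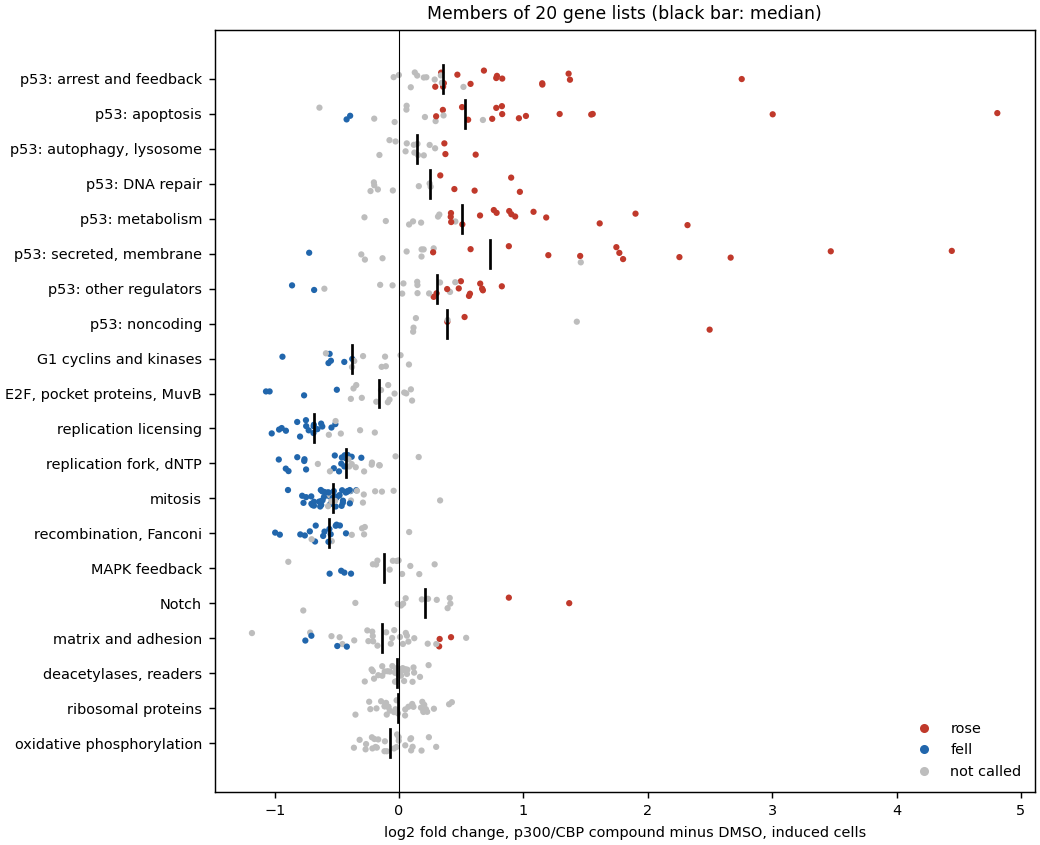
Each point is 1 tested gene of the list named at the left, at its log2 fold change in induced cells (p300/CBP compound minus DMSO), red where it rose, blue where it fell and grey where it was not called, with a black bar at the median. The 8 p53 lists spread to the right, up to 4.81 for TP53I11, the replication and mitosis lists lie mostly between 0 and -1, and the lists at the bottom are centred near 0.

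Most of the largest falls were of lowly expressed genes, with G0S2 and TEDC1 at higher levels. TERT, the catalytic subunit of telomerase, had 4, 5 and 8 counts with the compound and 28, 17 and 39 with DMSO (-2.20 ± 0.43, adjusted p = 0.0212), a call kept without the second or the third DMSO library (0.0193 and 0.00296) and lost without any other (0.0548 to 0.12). KCNH3, a potassium channel, had 1.29, 1.91 and 2.03 CPM with the compound and 4.74, 3.88 and 4.5 CPM with DMSO (-1.33 ± 0.21, adjusted p = 0.00676). LAT2, a signalling adaptor, had 5.16, 3.73 and 4.09 CPM with the compound and 9.92, 10.2 and 8.52 CPM with DMSO (-1.15 ± 0.15, adjusted p = 0.00321). Of the 15 largest falls KCNH3 and LAT2 alone were called without each library in turn. G0S2, an inhibitor of triglyceride lipase, showed the weight of the third DMSO library, with 19.9, 15.5 and 16.7 CPM with the compound and 36.7, 36.4 and 70.2 CPM with DMSO. It was at -1.48 ± 0.25 (adjusted p = 0.0111) and at -1.08 without that library (2.72e-21), and its call was lost without any 1 compound library (0.0504 to 0.0831).

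The same compound was also given to non-induced cells, which allows a test of whether its effect differed with induction. The labels name the tagged p53 for the induced samples only and do not say whether the other cells carried the construct or saw doxycycline, so p53 and the drug cannot be told apart here. Over 15618 genes the effect was higher in induced cells for 170 (1.09%) and lower for 30 (0.192%), together 1.28%. One non-induced DMSO library, the third, held 9.1 M counts, and the effect was higher for 118 and lower for 22 without it. Of the p53 targets 46 of 158 had a higher effect and none a lower one (median difference 0.32, against -0.00075 for all genes), and leaving out 1 of the 12 libraries gave 36 to 65 and 0 to 1. In non-induced cells 14 of 151 p53 targets rose and 12 fell (median 0.06), where 3.43% and 6.46% of all genes did (9.89% in either direction). CDKN1A was at 105 ± 4.66 CPM with the compound and 89.6 ± 3.37 CPM with DMSO in non-induced cells (SD), a change of 0.20 ± 0.06 (adjusted p = 0.0277), and the difference between the effects was 2.56 ± 0.09 (adjusted p = 8.99e-11). TP53I3 was at 29 ± 1.95 CPM with the compound and 20.7 ± 0.382 CPM with DMSO (0.46 ± 0.08, adjusted p = 0.000825; difference 2.56 ± 0.08, adjusted p = 4.46e-11). PLTP and FAS changed by 0.06 ± 0.09 and -0.07 ± 0.12 without induction, with differences of 2.27 ± 0.11 and 1.63 ± 0.14 (adjusted p = 2.75e-09 and 1.24e-05). JAG2, NOTCH1 and TGFBR1 also had higher effects on induction (1.49, 1.08 and 0.77, adjusted p = 0.000211, 0.00239 and 0.00113), and CCND1 and SPRY4 lower ones (-0.46 and -0.53, adjusted p = 0.016 and 0.0024).

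The cell cycle lists gave another picture. In non-induced cells 124 of their 133 members fell and none rose (median -0.46), and the difference of the effects was called for 1, TYMS (0.55 ± 0.09, adjusted p = 0.00522), and for none in the lower direction (median difference -0.07). DESeq2 also called 1 higher and none lower, a fit with no filter on low counts called 2 and 1, and leaving out 1 of the 12 libraries gave 1 to 2 higher and none lower. MCM2 was at 138 ± 27.4 CPM with the compound and 236 ± 3.03 CPM with DMSO in non-induced cells (-0.79 ± 0.10, adjusted p = 8.81e-05), and the effects differed by -0.11 ± 0.16 (adjusted p = 0.844). TOP2A was at 326 ± 22.5 CPM with the compound and 436 ± 9.32 CPM with DMSO (-0.44 ± 0.06, adjusted p = 9.84e-05), with a difference of -0.23 ± 0.09 (adjusted p = 0.378). A difference that was not called is not shown to be 0. TYMS itself fell in non-induced cells, with 287 ± 22.8 CPM with the compound and 420 ± 4.73 CPM with DMSO (-0.57 ± 0.06, adjusted p = 3e-05). PCNA, the sliding clamp of replication and repair and on the p53 repair list, is named after its values were seen. It rose in induced cells (0.33 ± 0.08, adjusted p = 0.0361, lost without any 1 library but the third DMSO library, 0.0796 to 0.18), fell in non-induced cells (-0.50 ± 0.05, adjusted p = 1.73e-05) and differed by 0.85 ± 0.09 (adjusted p = 8.69e-05).

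**Figure D5:**
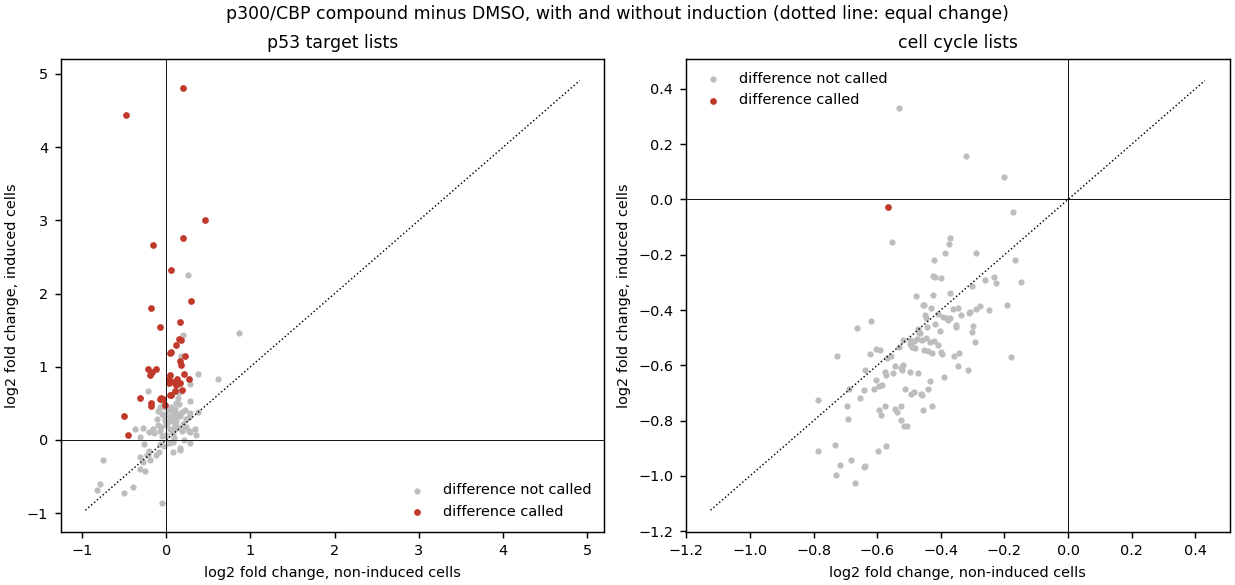
Each point is 1 gene of the p53 target lists (left) or of the replication, mitosis and recombination lists (right) tested in both states, at its log2 fold change (p300/CBP compound minus DMSO) without induction on the horizontal axis and with induction on the vertical axis, red where the difference of the effects was called. Many p53 targets lie far above the dotted line of equal change, whereas the cell cycle genes lie around it with TYMS as the 1 red point, and the axes of the panels differ in range.

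Set directly against the PCAF/GCN5 compound in induced cells after the same 24 h, 280 genes were higher with the p300/CBP compound and 337 lower, of 14983 tested (1.87% and 2.25%, together 4.12%). This is the 1 pair of compounds compared, and since no dose is given it compares these treatments and not the compounds at equal dose. CDKN1A averaged 2390 ± 59.6 CPM with the p300/CBP compound and 831 ± 26.7 CPM with the PCAF/GCN5 compound (SD), a difference of 1.54 ± 0.05 (adjusted p = 1.46e-11). TP53I3 averaged 633 ± 2.33 CPM with the p300/CBP compound and 164 ± 12.7 CPM with the PCAF/GCN5 compound (1.97 ± 0.06, adjusted p = 4.45e-12). TP53I11, PLTP and FAS were higher by 1.87, 1.00 and 0.83 (adjusted p = 1.46e-11, 8.74e-08 and 3.96e-06). Other targets were not called apart. MDM2 differed by -0.05 with a 95% interval of -0.20 to 0.10, BTG2 by 0.07 (-0.06 to 0.19), GLS2, a glutaminase named for this after its values were seen, by -0.17 (-0.44 to 0.10) and IGFBP3 by 0.11 (-0.17 to 0.39). PMAIP1 was at 68.4 ± 4.14 CPM with the p300/CBP compound and 52.9 ± 3.14 CPM with the PCAF/GCN5 compound (0.39 ± 0.07, adjusted p = 0.00225). AREG and H19 were higher by 2.67 ± 0.28 and 2.92 ± 0.25 (adjusted p = 4.42e-05 and 3.3e-06). Of the p53 targets 48 of 159 were higher and 7 lower (median 0.14), with 25 to 66 higher when 1 library was left out, the highest without the second PCAF/GCN5 library and the lowest without the second or the third p300/CBP library, and 28 when all 6 groups shared 1 fit. Of the cell cycle members 82 of 133 were lower and 1, LIG1, higher (median -0.36), with 38 to 91 lower when 1 library was left out. TOP2A averaged 160 ± 5.86 CPM with the p300/CBP compound and 241 ± 13.8 CPM with the PCAF/GCN5 compound (-0.57 ± 0.06, adjusted p = 1.32e-05), and MCM2 differed by -0.44 ± 0.09 (adjusted p = 0.0115).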

How the data were processed

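RNA of 18 H1299 libraries was made into total RNA libraries with a directional kit, per the labels' protocols. The authors deposited 4 tables, each of 1 compound and DMSO in 1 state. Per the file headers they hold raw counts per gene, which were used here, and normalised values per library and their mean, deposited as a signal scaled by DESeq2. They also hold the authors' log2 fold changes with errors and deposited p-values with adjusted p. In 1 deposited non-induced table the line of gene ANK2 is broken, so that gene was left out there, and the DMSO counts were read from the second non-induced table. StringTie and DESeq2 are named, without versions, per the submitters' processing notes. The aligner, build, annotation and use of strand are not given in the sources used here, so overlapping and antisense genes are uncertain. Gene positions in the deposited files matched GENCODE 29 (GRCh38) for 79.6% of shared identifiers, and 60294 of 60622 identifiers matched current gene names.

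A separate model was made for every comparison from its own libraries, using the quasi-likelihood F test of edgeR 4.0.16 under R 4.3.3 after TMM scaling and filterByExpr, where SE is the log2 fold change over the square root of F and 95% intervals use the test's degrees of freedom. Alternatives were DESeq2 1.42.0, RLE factors, no filter, all 6 groups in 1 fit, a replicate block and leaving out each library in turn. The procedure was tested on simulated data. There, in a single draw per comparison, the share of false calls lay above the threshold for a call in the comparison with DMSO in induced cells. In the other comparisons it lay only just above it. The simulated counts held no shift like that of the third DMSO library, so they do not give the share of false calls in the data. Some of the changes put in were missed, more of the smaller ones. The calls of that comparison may therefore hold more false ones than the threshold implies. A count of 0 allows up to 3 counts, 0.124 to 0.149 CPM in compound and 0.12 to 0.134 CPM in DMSO libraries, for counting error only. Members and lists were chosen with earlier results of these data known. Named genes are the recruited enzymes and FKBP1A, the 15 largest called rises and falls (at least 1 CPM in 1 group, no overlap, called also without the third DMSO library) and, per list, up to 4 called members per direction by smallest p, their relatives and members not called. Some results the naming rule would give are not reported here.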

Additional observations from a re-analysis of the deposited data

Results flagged for a closer look

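Some named genes drew attention because the effect of the p300/CBP compound differed between induced and non-induced cells, by edgeR's test of the difference itself (induced minus non-induced, log2, adjusted p below 0.05). The effect was higher on induction by at least 1 log2 unit for ABHD4 (1.14), CDKN1A (2.56), CMBL (1.47), CYFIP2 (1.19), EPS8L2 (1.16), FAS (1.63), JAG2 (1.49), NOTCH1 (1.08), PLTP (2.27), POLH (1.20), SESN1 (1.24) and TP53I3 (2.56). It was higher by less than that for ASCC3 (0.56), ATF3 (0.81), BAX (0.70), BBC3 (0.85), BLOC1S2 (0.57), ISCU (0.76), MCC (0.72), PCNA (0.85), POLR1A (0.56), RRM2B (0.71), SESN2 (0.51), TAP1 (0.51), TGFBR1 (0.77), TNFRSF10B (0.62), TNFRSF10D (0.57), TYMS (0.55) and ZMAT3 (0.93). Genes that averaged about 1 CPM or less in non-induced cells gave TP53I11 (4.60), SEPTIN4 (4.55), IGFBP3 (4.95), NSG1 (7.71), HES2 (6.05), VCAN (2.84) and GLS2 (1.62). For NSG1 and HES2, almost without counts in those cells, the size depends on the prior count and is no bound. The effect was lower on induction for ANGPTL4 (-0.84), CCND1 (-0.46), PHLDA1 (-0.43) and SPRY4 (-0.53). Which part of each difference goes with p53 and which with doxycycline or the construct cannot be told apart.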

How the results depend on the processing

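In the comparison with DMSO in induced cells 441 genes rose and 457 fell. DESeq2 called 613 and 732, 1 fit of all 6 groups 934 and 1280, no filter 851 and 1255, and RLE factors 438 and 459. Leaving out 1 library gave 171 to 1575 and 92 to 1659, the highest without the third DMSO library. Of the 898 calls 887 were called by DESeq2 in the same direction.

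For the effect with against without induction (170 higher, 30 lower) DESeq2 called 221 and 66, 1 fit of all 6 groups 166 and 52, and no filter 260 and 156. Leaving out 1 library gave 109 to 299 and 13 to 133. For the 2 compounds (280 higher, 337 lower) 1 fit of all 6 groups called 145 and 249, no filter 436 and 456, and leaving out 1 library 117 to 520 and 119 to 578. The causes of these shifts were not tested. No called gene named in the text changed direction under any alternative run.

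Whether the replicate numbers pair the samples cannot be settled here. Compound and DMSO libraries of the same number had correlations of -0.037, 0.020 and -0.053 in their deviations from the group means. With 3 libraries per group, and the third DMSO library standing apart, such values cannot exclude a pairing. With the replicate number as a block 288 genes rose and 242 fell, 526 of the 898 calls being kept. The block gave 138 higher and 24 lower for the effect of induction, and 261 and 307 between compounds.

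With 3 libraries per group and 20.2 to 24.9 M counts each, genes below about 1 CPM had the widest errors.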

Other observations

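TEDC1, a tubulin-linked centriole gene, was at 12.4, 14 and 13.6 CPM with the p300/CBP compound and at 22.8, 20.8 and 44.7 CPM with DMSO in induced cells, the last value being that of the third DMSO library. LMNA, which encodes lamins A and C, was at 1099, 1099 and 1118 CPM with the compound and at 1384, 1297 and 1954 CPM with DMSO (-0.50 ± 0.14, adjusted p = 0.0833 by edgeR's quasi-likelihood test, and -0.28, adjusted p = 4.46e-08, without that library). H19 had no count in the 6 non-induced libraries of the p300/CBP compound and DMSO, and the PCAF/GCN5 compound left it at 0.514 to 0.667 CPM in induced cells. KAT2B, the PCAF acetyltransferase, was at 148, 152 and 163 CPM with the p300/CBP compound and at 120, 119 and 91.4 CPM with DMSO (0.48 ± 0.10, adjusted p = 0.0237, and 0.0873 to 0.138 without any 1 compound library). It was the 1 acetyltransferase of 16 called, where 5.98% of all genes were called in either direction.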
